A study of Mus musculus with 11 samples.

Results

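The cortex of unlesioned VP16-CREB transgenic mice (T) was compared with that of unlesioned wild-type mice (WT). The comparison drew on 8 of the 11 2-colour Agilent arrays of the series, all that carried a T or a WT mouse according to their titles. T mice numbered 5 and WT mice 6. All were C57/Bl6J mice aged 5 to 7 months, and RNA came from the cortex of the right hemisphere. T mice had the genotype GFA2-tTa/TetO-VP16-CREB, in which the GFA2 promoter, a fragment of the human GFAP promoter, drives a tetracycline-controlled activator in astrocytes, and that activator switches on VP16-CREB. WT mice were labelled wild type, with no transgene named. The remaining mice had the same 2 genotypes and a cold injury from dry ice held on the brain surface for 30 s, taken 3 days later (transgenic, TC, 6 mice, and wild type, WTC, 5 mice). Arrays D, E and F paired a T with a WT mouse directly. On arrays A, B and C the WT mouse was paired with a lesioned one, and on arrays I and J the T mouse was paired with a TC mouse, so those mice entered through the linked design. Each mouse was on 1 array, and the RNA was that of bulk tissue, so fewer cells of a type and less RNA per cell cannot be told apart in any value below.

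CREB is a transcription factor that binds the cAMP response element (CRE) and is switched on when kinases such as protein kinase A phosphorylate it. Fusing CREB to VP16, a viral activation domain, gives a protein that activates CRE-bearing genes without phosphorylation. Classical CREB targets include immediate early genes, transcribed within minutes of neuronal or glial stimulation, and slower genes such as Crem and Nfil3. In the brain CREB also links cAMP signals to the circadian clock, whose output genes include Dbp.

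The promoters of 3 genes named below are shown with the half-site of the CRE, TGACG or its reverse complement CGTCA, in capitals. They are the 250 bases before the annotated start, on the plus strand of GRCm38.p6, from RefSeq. Fos (chr12:85473640-85473889) and Nr4a1 (chr15:101266596-101266845) are immediate early genes with 2 and 4 half-sites, and Dbp (chr7:45704997-45705246), the gene with the smallest p of all, has 0 in this window.
Fos: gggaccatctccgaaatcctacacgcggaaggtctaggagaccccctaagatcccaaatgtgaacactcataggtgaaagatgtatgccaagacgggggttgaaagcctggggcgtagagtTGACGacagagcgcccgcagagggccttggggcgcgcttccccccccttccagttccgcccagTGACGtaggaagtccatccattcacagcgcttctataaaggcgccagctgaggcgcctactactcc
Nr4a1: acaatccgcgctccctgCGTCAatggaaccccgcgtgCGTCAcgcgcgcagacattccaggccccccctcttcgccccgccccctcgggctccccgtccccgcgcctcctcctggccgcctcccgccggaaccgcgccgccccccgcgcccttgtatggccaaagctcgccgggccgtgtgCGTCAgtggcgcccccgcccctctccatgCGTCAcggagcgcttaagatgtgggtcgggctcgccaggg
Dbp: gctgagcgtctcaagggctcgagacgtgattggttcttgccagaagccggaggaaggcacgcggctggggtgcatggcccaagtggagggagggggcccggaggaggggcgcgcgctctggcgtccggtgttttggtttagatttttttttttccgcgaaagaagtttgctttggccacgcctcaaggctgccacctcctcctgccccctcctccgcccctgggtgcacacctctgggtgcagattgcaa
Over both strands, the half-site was found in 13 of 18 listed immediate early genes with a promoter in the table (72.2%), in 9 of 14 delayed CREB target genes (64.3%) and in 5 of 15 clock genes (33.3%), against 17.9% of all 27025 promoters. The full palindromic CRE, TGACGTCA, in which 2 half-sites overlap on opposite strands, was found in 2, 4 and 1 genes of those lists and in 1.62% of all promoters. These matches describe letters in the window only.

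Levels below are log2 channel intensities per mouse after normalization, and ratios are T minus WT log2 ratios with their SE (after ±), fitted in limma over the 11 arrays jointly. Spots well above background made up 56.6% to 65.3% per channel. Defining astrocyte markers (Gfap, Aqp4, Slc1a2, Slc1a3, Gja1, Aldh1l1) and cortical excitatory markers (Slc17a7, Tbr1, Neurod6, Camk2a) were well above background in all 11 T and WT channels. All WT mice and the T mice of arrays D, E and F were on slide 1, and the T mice of arrays I and J on slide 2.

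Some libraries stood apart before any comparison. Protamine 1 (Prm1), a sperm chromatin gene whose fragments are used in some transgene cassettes, is not the targeted gene, and the labels give no sequence for this construct. Its log2 level was 10.07 to 13.31 in the 6 TC mice and 5.65 to 7.97 in the 5 WTC mice, with no overlap. Among T mice it was 9.10 (D), 8.75 (E), 6.47 (F), 11.88 (I) and 10.77 (J). Among WT mice it was 10.28 (A), 6.40 (B), 5.84 (C), 10.03 (D), 6.27 (E) and 5.80 (F). The library labelled T on array F thus lay within the WTC range, and the library labelled WT on array A lay within the TC range. The library labelled WT on array D was above every WTC level and just below the lowest TC level. Directions below are those of the labels. Sex was not labelled. The Y-linked helicase gene Ddx3y was at 9.94 to 11.22 in 4 T mice and 6.35 in that of array I, and at 10.001 to 10.93 in 4 WT mice, 6.41 in that of array E and 5.59 in that of array F. Xist, the RNA of the silenced X chromosome, was at 11.3 or more in exactly the 4 of 22 mice with low Ddx3y, 1 T, 2 WT and 1 lesioned, and at 7.48 or less in the rest.

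**Figure D1:**
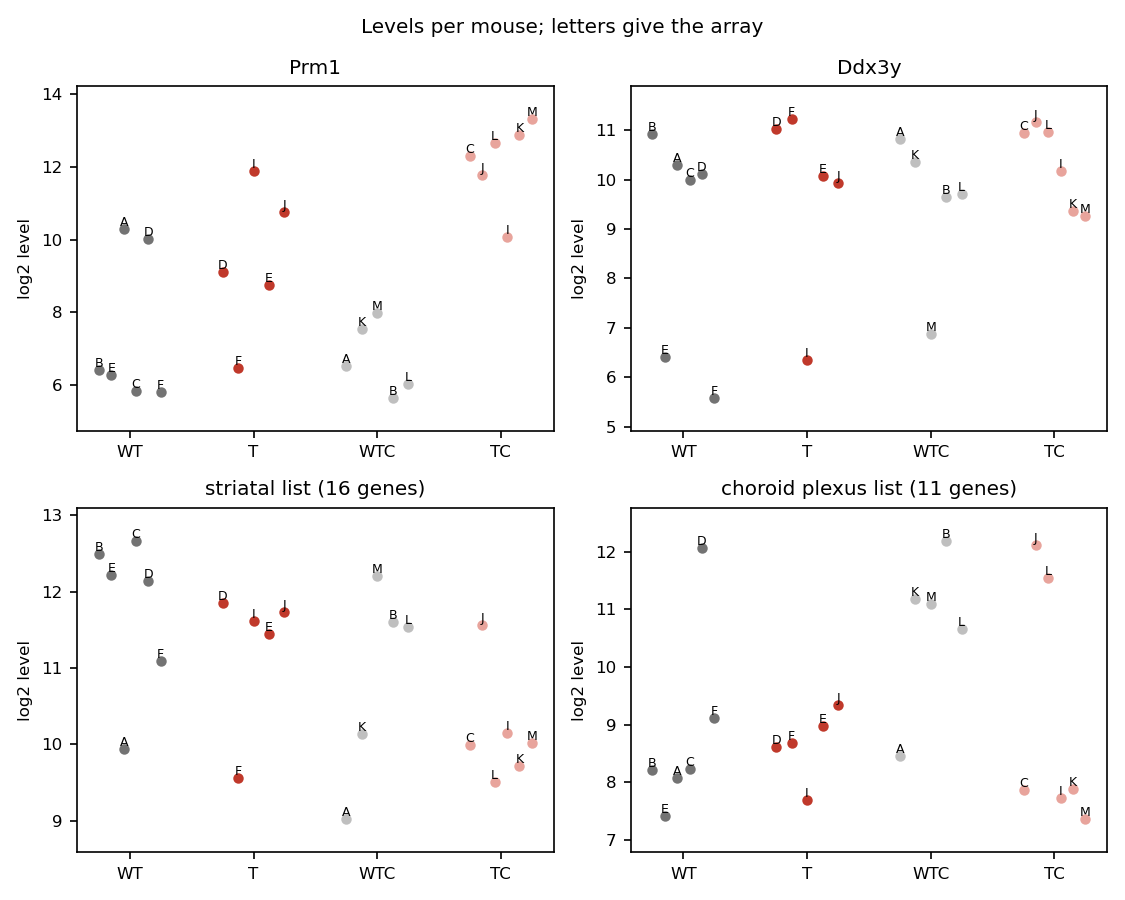
Log2 level per mouse (vertical axis) of Prm1, Ddx3y, the mean of 16 striatal genes and the mean of 11 choroid plexus genes in WT, T, WTC and TC mice; each point is 1 mouse and its letter the array. Prm1 in T of array F (6.47) and in WT of arrays A (10.28) and D (10.03) lies apart from its group, as do the striatal level of T of array F (9.55) and the choroid plexus level of WT of array D (12.06).

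Across the transcriptome, no feature passed the test for a difference between T and WT cortex. Of 26020 features, 16053 of them with a gene symbol, 0 (0%) passed an adjusted p of 0.05 in limma, and the smallest adjusted p was 0.983. At an unadjusted p under 0.05 there were 765 features (2.94%), 261 higher in T (1.0%) and 504 lower (1.94%), where 1301 would be expected with no difference. The median log2 ratio was -0.002, and the 1st and 99th percentiles were -0.61 and 0.49. The median SE was 0.116 and the median half-width of the 95% interval 0.26, so for a typical feature a difference of that size was within error. The median SD between animals was 0.136 in WT and 0.132 in T. Every gene named below had an adjusted p of 0.98 or more for T minus WT in the limma fit over all features, and none is called changed. Without the 3 libraries that stood apart in Prm1, in a fit of single channels, 0 features passed and 230 had an unadjusted p under 0.05. In that fit of single channels Dbp was at -0.43, against -0.41 with all mice, Fosl2 at 0.55 (0.64 with all), Fos at 0.72 (0.94), Crem at 0.39 (0.32), S100a9 at 1.34 (1.70) and Lcn2 at 0.75 (0.73). The medians were -0.60 for striatal genes (-0.71 with all mice), -0.24 for myelin genes (-0.28) and 0.365 for neutrophil genes (0.47). Leaving out array F, J or E from the linked fit gave 411, 454 and 1201 such features, and again 0 that passed.

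**Figure D2:**
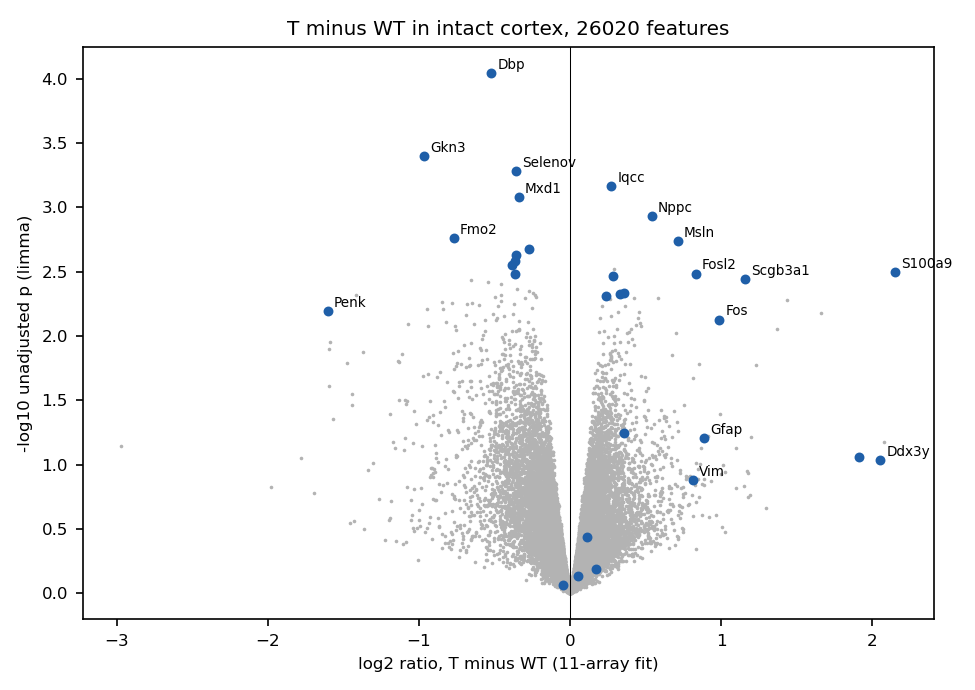
T minus WT log2 ratio (horizontal axis) against -log10 of the unadjusted limma p (vertical axis) for 26020 features in grey; blue points are the 20 genes chosen by smallest p and sign and the genes named in any case. Dbp, at -0.52, has the smallest p, S100a9, at 2.15, lies farthest right of the 20, and no feature passed the adjusted threshold.

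The 3 direct pairs gave ratios that differed between pairs. Across features, the ratios of arrays D and E correlated at r = -0.214, those of D and F at 0.163 and those of E and F at 0.004. The T mouse was labelled with Cy5 on arrays D and F and with Cy3 on array E, and with a dye term for each slide the 3 correlations were 0.291, -0.057 and 0.305. Genes are not independent replicates, and the arrays share the dye estimate. Of all features, 7538 (29.0%) had the same sign on the 3 arrays, 3460 higher (13.3%) and 4078 lower (15.7%). A difference of 2-fold or more in every direct pair was seen for 3 features higher in T and 1 lower. The higher ones were Lcn2, S100a9 and Lrg1, which encode proteins of neutrophil granules, cytosol and the acute phase. Lrg1, named after its values were seen, had ratios of 1.84, 1.01 and 1.70 on arrays D, E and F. The lower one was Xist, at -4.02 and -7.61 on arrays E and F, whose WT mice lacked Y-linked signal. On array D both mice were at the low level of mice with Y-linked signal (5.18 in T and 6.84 in WT), so its value there is no measured difference.

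Genes of the CREB family itself had small ratios. Creb1, whose probe has no known place relative to the construct, had levels of 8.35, 8.39, 8.42, 8.22 and 8.38 in the T mice of arrays D, E, F, I and J, and 8.02 to 8.36 in WT with a median of 8.18. The groups overlapped, and the ratio was 0.05 ± 0.15 (95% interval -0.28 to 0.38). Crem, which encodes activators and the repressor ICER and is induced through its own CREs, had T levels of 9.79, 9.73, 9.36, 9.71 and 9.64 and WT levels of 9.01 to 9.57, median 9.42. Of the 5 T mice 4 lay above every WT mouse, the exception being that of array F, with a ratio of 0.36 ± 0.16 (1.28-fold, 95% interval 0.99 to 1.66). A second Crem probe gave the same ratio of 0.36. Atf1, the third member of the family, was at 0.11 ± 0.12. The coactivators Crtc1, Crtc2, Crtc3, Crebbp and Ep300 lay between -0.17 and -0.05. Of the 8 factors and coactivators 3 were above 0, their median was -0.06, and 0 had an unadjusted p under 0.05.

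Immediate early genes leaned higher in T. Of 22 measured, 21 had a ratio above 0, against 49.2% of all features, and the median was 0.31, against -0.002. At an unadjusted p under 0.05, 6 were higher and 0 lower (background 1.0% and 1.94%): Fos, Fosb, Junb, Egr2, Nr4a1 and Ptgs2. The direct pairs carried this unequally, with a list median of -0.02 on array D, 0.12 on array E and 0.47 on array F. In all 3 pairs 6 members were higher and 2 lower (13.3% and 15.7% of all features). The linked fit also reaches the T mice of arrays I and J through lesioned mice. In lesioned cortex, TC minus WTC, 10 of the 22 were above 0, with a median of -0.06. The list's mean level per mouse ran from 9.46 to 10.11 in T (median 9.89) and from 8.94 to 9.74 in WT (median 9.58), so the groups overlapped. In the fit of single channels without the 3 libraries apart in Prm1 the list median was 0.22, an estimate of another kind than the linked 0.31.

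Fos, which forms the AP-1 factor with Jun proteins, had T levels of 8.52 (D), 8.95 (E), 10.33 (F), 9.43 (I) and 9.19 (J). WT levels ran from 7.72 to 8.97 with a median of 8.39. The mouse of array F was the highest, 3 T mice exceeded every WT mouse, and the ratio was 0.99 ± 0.29 (1.98-fold, 95% interval 1.26 to 3.12). Egr2, a zinc finger factor, ranked the 5 T mice in the same order, with T levels of 7.59, 7.96, 9.10, 8.70 and 8.68 against 6.27 to 8.28 in WT (median 7.61), a ratio of 0.85 ± 0.29. Junb, a partner of Fos, was at 0.68 ± 0.22, with 4 of 5 T mice above every WT mouse. Fosb, a further Fos family gene, was at 0.47 ± 0.14 with T levels within 8.96 to 9.06, 1 of them above the highest WT level. Ptgs2, the inducible cyclooxygenase, was at 0.99 ± 0.42, with ratios of -0.03, 0.53 and 0.78 in the direct pairs. Klf4 was the member below 0, at -0.03.

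Fosl2, a Fos-related AP-1 gene outside the list, was among the few genes without overlap. Its levels were 10.02, 9.97, 10.26, 9.67 and 10.002 in the T mice of arrays D, E, F, I and J. In WT they were 9.07 to 9.61 with a median of 9.51. Every T mouse lay above every WT mouse, and the ratio was 0.83 ± 0.21 (1.78-fold, 95% interval 1.28 to 2.48), with 0.41, 0.41 and 0.80 in the direct pairs. A second, dimmer Fosl2 probe gave 0.07 ± 0.07, so the probes of this gene disagreed in size.

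Delayed CREB targets and the cAMP pathway had medians close to 0. Of 18 delayed targets 11 were above 0 (49.2% of all features), and the median was 0.09. At an unadjusted p under 0.05, 0 were lower and 1 was higher (1.94% and 1.0% of all features). That gene was Nfil3, a repressor of D-box genes and a clock component, at 0.37 ± 0.12 with 0.23, 0.43 and 0.38 in the direct pairs and 3 T mice above every WT mouse. Crh, the stress neuropeptide, was at 0.57 ± 0.34 and Bdnf, a neurotrophin, at 0.50 ± 0.36. Of 17 genes of the cAMP and protein kinase A pathway 10 were above 0, with a median of 0.02. The regulatory subunit genes Prkar2a and Prkar2b were at 0.18 ± 0.10 and -0.23 ± 0.13, and 0 of the 17 had an unadjusted p under 0.05.

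Clock output genes held the feature with the smallest p. Dbp, a D-box activator whose transcript cycles strongly over the day, had T levels of 14.80 (D), 14.57 (E), 14.75 (F), 14.90 (I) and 15.14 (J). WT levels ran from 15.01 to 15.32 with a median of 15.20. The T mouse of array J alone overlapped WT, and the other 4 lay below every WT mouse. The ratio was -0.52 ± 0.08 (95% interval -0.70 to -0.34, adjusted p = 0.983 in limma), with -0.40, -0.74 and -0.45 in the direct pairs. A second Dbp probe gave -0.57.

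Ciart, a clock repressor, had T levels of 9.21, 9.03, 8.95, 9.18 and 9.46 and WT levels of 9.02 to 9.83, median 9.49. All T mice were below the WT median, the WT mice of arrays A (9.02) and C (9.44) lay within their range, and the ratio was -0.46 ± 0.12. Per3, a period gene, was at -0.23 ± 0.11 and the D-box activators Hlf and Tef at -0.36 and -0.20, while Arntl, the positive arm of the clock, was at 0.21. Of the 17 clock genes 5 were above 0 and 12 below, with a median of -0.08 (direct pairs -0.12, -0.19 and -0.19). Dbp and Ciart had an unadjusted p under 0.05 on the lower side (1.94% of all features) and Nfil3 on the higher (1.0% of all features). The hour at which tissue was taken is not stated in the labels.

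Besides Fosl2, the 10 higher genes with the smallest p and the same sign in every direct pair were mostly small in size. S100a9, a calcium-binding protein of neutrophils, had T levels of 8.74 (D), 9.11 (E), 10.60 (F), 8.50 (I) and 7.35 (J) against 6.59 to 7.73 in WT (median 7.60). Of the T mice 4 exceeded every WT mouse, the exception being that of array J, and the ratio was 2.15 ± 0.55 (4.44-fold, 95% interval 1.90 to 10.4). Nppc, which encodes C-type natriuretic peptide, was at 0.54 ± 0.12, with 4 T mice (8.65, 8.65, 8.70 and 9.04) above the WT range of 7.68 to 8.38 and that of array J, at 8.12, within it. Msln, a mesothelial surface protein, was at 0.71 ± 0.16. Scgb3a1, a secretoglobin, was at 1.16 ± 0.30, with the T mice of arrays D, E and F (7.85, 8.35 and 7.40) above every WT level and that of array J (6.21) below every one. Vps37a, an ESCRT-I subunit, was at 0.36 ± 0.10 with no overlap (T 8.14 to 8.48, WT 7.91 to 8.07). Iqcc (0.27), Rab39 (0.28), Bbs12 (0.33), a chaperonin-like ciliopathy gene, and 9530077C05Rik (0.24) completed the 10. Each of these overlapped WT, with 4, 2, 3 and 4 T mice above every WT mouse, in that order. The second Iqcc probe gave -0.05.

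On the lower side, Gkn3, a gastrokine gene that marks arterial endothelium in brain, followed Dbp. Its levels were 8.84 (D), 9.11 (E), 9.98 (F), 10.41 (I) and 9.92 (J) in T and 9.77 to 10.66 in WT (median 10.36). The T mice of arrays D and E lay below every WT mouse and the other 3 within the WT range, with a ratio of -0.97 ± 0.18. Fmo2, a flavin monooxygenase, was at -0.77 ± 0.18, with T levels of 6.86 to 7.34 below 5 of the 6 WT mice and overlapping that of array A (7.01). Ltbp4, which tethers latent TGF-beta to the matrix, was at -0.36 ± 0.09 with no overlap, at 11.71 to 12.15 in T and 12.22 to 12.44 in WT. Others on this side were Selenov (-0.36), Mxd1 (-0.34), a MAX partner, Dlx4 (-0.27), Adam23 (-0.39) and Rhobtb2 (-0.36). Each overlapped WT, with 2, 1, 0, 1 and 2 T mice below every WT mouse, in that order. For Dlx4, 2 T mice lay above the WT median.

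Astrocytes are the cells in which the transgene is driven. Of 20 homeostatic astrocyte genes 5 were above 0 and 15 below (50.8% of all features below), with a median of -0.06, and 2 had an unadjusted p under 0.05, both lower (1.94% of all features). Slc4a4, the sodium bicarbonate cotransporter, had T levels of 11.03, 11.12, 10.95, 11.01 and 10.92 and WT levels of 11.15 to 12.07, median 11.42. The groups did not overlap, by a narrow margin, and the ratio was -0.58 ± 0.22. Other Slc4a4 probes gave -0.675 and -0.13 ± 0.08, so the probes of this gene disagreed in size. S100b, a calcium-binding protein of mature astrocytes, was at -0.49 ± 0.21 and Ndrg2 at -0.40 ± 0.22. The water channel gene Aqp4 was at -0.05 ± 0.26, its second probe at 0.04, and its sign turned under several alternatives. The glutamate transporters Slc1a2 and Slc1a3 were at -0.05 and 0.01.

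Of 16 genes shared by reactive astrocytes 14 were above 0, with a median of 0.41, but the direct pairs gave -0.10, 0.07 and 0.21. Among the 14, Steap4 was well above background in 0 T and 0 WT channels. Gfap, the intermediate filament of astrocytes, had T levels of 11.97 (D), 12.13 (E), 12.72 (F), 12.71 (I) and 12.74 (J) against 11.15 to 12.55 in WT (median 11.52). The WT mice of arrays A (12.35) and D (12.55) overlapped T, the other 4 lay below every T mouse, and the ratio was 0.88 ± 0.42, with -0.59, 0.93 and 0.88 in the direct pairs. The 2 overlapping WT mice are those with high Prm1, whereas T of array F, with low Prm1, had Gfap at 12.72. In the fit of single channels without these 3 libraries the Gfap ratio was 1.19, an estimate of another kind than the linked 0.88. A link between Prm1 and Gfap levels was not tested. Other Gfap probes gave 0.88 and 0.73. Vim, a further intermediate filament, was at 0.81 ± 0.49, Serpina3n, a protease inhibitor, at 0.91 ± 0.42 and Osmr, the oncostatin M receptor, at 0.73 ± 0.42.

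Lcn2, an iron-siderophore carrier made by reactive astrocytes and neutrophils, gave unlike values in the direct pairs and across all mice. On arrays D, E and F the ratios were 2.15, 1.94 and 1.54. The T levels were 10.37, 10.18, 9.07, 7.54 and 8.02 and the WT levels 7.53 to 10.70 with a median of 8.23. WT of array B (10.70) was above every T mouse, WT of array A (9.69) above 3 of the 5, and the T mice of arrays I and J lay below those of the direct pairs. The ratio was 1.66 ± 0.48 in the linked fit and 0.73 in the fit of single channels. Of 11 neurotoxic (A1-type) genes 7 were above 0 (median 0.14), and of 11 neuroprotective (A2-type) genes 10 (median 0.34), with Cd109, a TGF-beta co-receptor, at 0.81 ± 0.29. Ptx3 and Tgm1 (A2) and Ggta1 (A1) were each well above background in 0 T and 1 WT channels. They passed the filter through channels of lesioned mice, so their signs carry little for intact cortex. On arrays D, E and F the A1 medians were -0.55, -0.23 and 0.12 and the A2 medians 0.05, -0.26 and 0.55. The 3 metallothionein genes were above 0 (median 0.37), with Mt2 at 0.42 ± 0.20. The 12 glycogen and lactate genes had a median of -0.03 and the 16 astrocyte-derived growth factor and synaptogenic genes one of -0.03.

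**Figure D3:**
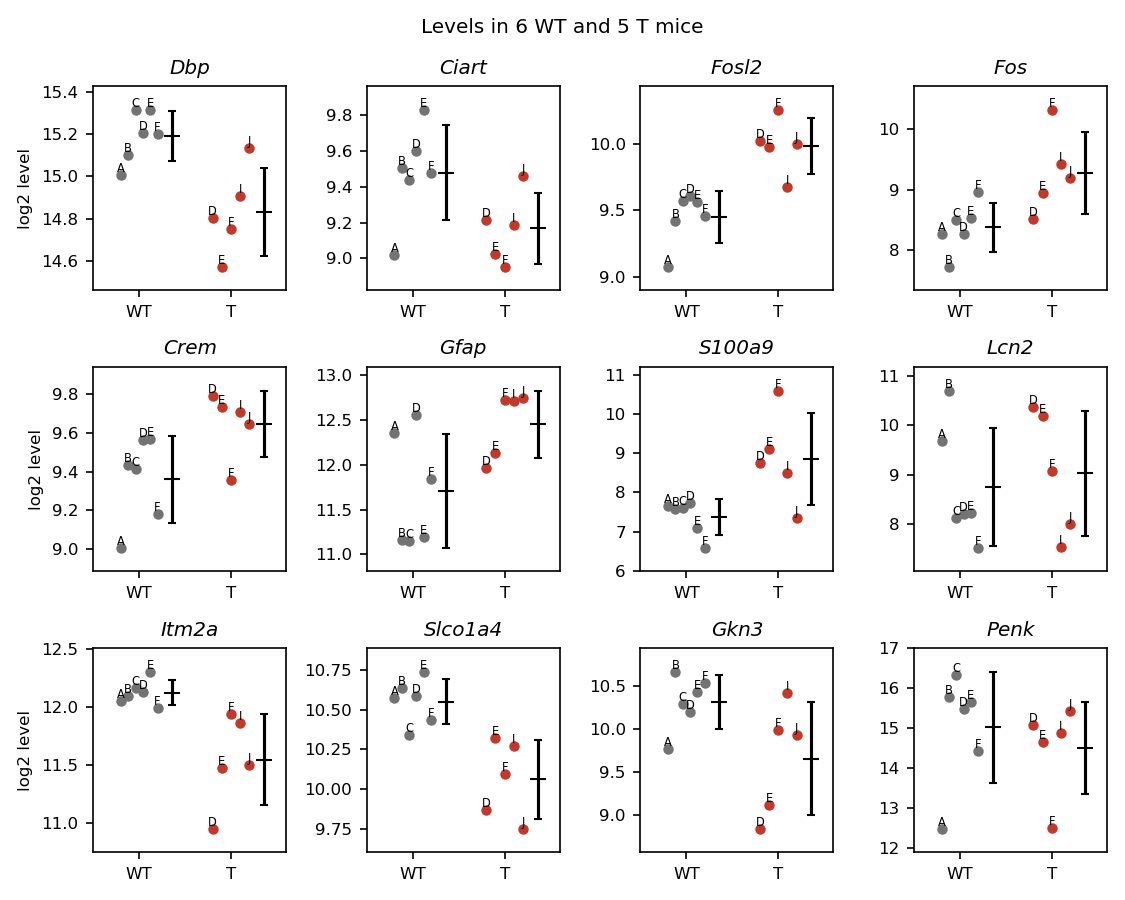
Log2 level (vertical axis) of 12 genes in 6 WT mice (grey) and 5 T mice (red); each point is 1 mouse with the letter of its array, and the bar gives mean and SD. The groups do not overlap for Fosl2, Itm2a and Slco1a4, 4 of 5 T mice lie below all WT mice for Dbp, and for Penk T of array F and WT of array A lie far below the rest.

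Of 10 listed neutrophil genes 6 were measured, all above 0, with a median of 0.81 and direct-pair medians of 0.57, 0.58 and 0.95. S100a8, the partner of S100a9 in calprotectin, had T levels of 7.09, 7.18, 8.72, 6.98 and 6.19 and WT levels of 6.04 to 6.41, median 6.38. The T mouse of array F was the highest and that of array J lay within WT, with a ratio of 1.44 ± 0.40, and the probe was well above background in 5 T and 4 WT channels. Camp, Mmp8 and Mmp9, further neutrophil genes, were at 0.17, 0.09 and 0.09. S100a9, Lcn2 (1.66) and S100a8 thus lay far above the other 3 members. A fit of single channels that left out T of array F put S100a9 at 1.25. Its value with all mice in single channels, given above, was already below that of the linked fit.

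For other immune genes and for dividing cells the linked fit and the direct pairs differed. All 14 monocyte and macrophage genes were above 0 in the linked fit (median 0.46), with direct-pair medians of 0.02, -0.41 and 0.66. Of 16 homeostatic microglia genes 14 were above 0 (median 0.16), with -0.16, -0.34 and 0.04 in the pairs, and Aif1, a microglial actin-bundling protein, was at 0.17 ± 0.36. Of 14 interferon-response genes 12 were above 0 (median 0.17), with -0.92, -0.71 and -0.07 in the pairs, and of 14 antigen presentation genes also 12 (median 0.14), with -0.67, -0.19 and 0.24.

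All 22 cell cycle genes were above 0 in the linked fit (median 0.38), among them the spindle checkpoint kinase gene Bub1b at 0.50 ± 0.22 and the replication clamp Pcna at 0.43 ± 0.20. The direct pairs gave 0.49, -0.26 and 0.21, and the list's mean level was 7.92 to 8.50 in T and 7.84 to 8.38 in WT. In none of these 5 lists did the T mice lie apart from the WT mice. The linked fit reaches the T mice of arrays I and J through lesioned mice, and with arrays D, E and F alone the macrophage and cell cycle medians were -0.02 and 0.06.

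Some transporter and membrane genes of brain endothelium separated the groups on the lower side. Itm2a, a membrane protein gene of endothelium, had T levels of 10.95 (D), 11.47 (E), 11.94 (F), 11.86 (I) and 11.50 (J) and WT levels of 11.99 to 12.30, median 12.11. Every T mouse lay below every WT mouse, and the ratio was -0.68 ± 0.19 (-1.18, -0.83 and -0.05 in the direct pairs). Slco1a4, an organic anion transporter of the blood-brain barrier, also had no overlap, at 9.87, 10.32, 10.09, 10.27 and 9.75 in T against 10.34 to 10.74 in WT, with a ratio of -0.59 ± 0.19. Abcb1a, the P-glycoprotein efflux pump, was at -0.48 ± 0.18, with 4 of 5 T mice below every WT mouse.

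Of 15 endothelial genes 12 were below 0 (50.8% of all features), 3 had an unadjusted p under 0.05, all lower (1.94% of all features), and the median was -0.15. Pan-endothelial genes were near 0, with Cldn5 at 0.06, Pecam1 at 0.01 and Cdh5 at -0.05. In the fit of single channels without the 3 libraries apart in Prm1, Itm2a was at -0.71 and Slco1a4 at -0.48, estimates of another kind than the linked ratios. Of 11 pericyte and smooth muscle genes 8 were below 0 (median -0.10), and of 12 meningeal and fibroblast genes 6 (median -0.002). The 6 measured hemoglobin and heme genes were all below 0 (median -0.26), with 0.02, -0.48 and 0.25 in the direct pairs.

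Myelin genes lay below 0 in 15 of 16 cases (50.8% of all features), with a median of -0.39 and direct-pair medians of -0.25, -0.06 and -0.21. At an unadjusted p under 0.05, 0 were higher and 0 lower (1.0% and 1.94% of all features). In lesioned cortex, TC minus WTC, the list median was -0.27. Cnp, a myelin phosphodiesterase gene, had T levels of 14.22, 14.25, 14.18, 14.08 and 13.75 and WT levels of 14.37 to 14.54. The groups did not overlap, and the ratio was -0.47 ± 0.23. Tspan2, a myelin tetraspanin, was at -0.43 ± 0.24. Averaged over the list, T mice lay at 11.69 (array J) to 12.18 and WT mice at 12.09 to 12.36. Of 10 oligodendrocyte precursor genes 8 were below 0 (median -0.05). Genes of cholesterol synthesis were below 0 in 13 of 15 cases (median -0.11), 10 of them lower in every direct pair against 15.7% of all features. Insig1, a sterol sensor, was at -0.29 ± 0.18 with no overlap (T 8.64 to 8.90, WT 8.91 to 9.19).

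Genes of medium spiny neurons mark the striatum, which lies beneath the cortex, and they varied widely between animals of a genotype. All 16 were below 0, with a median of -1.11, and 15 were lower in every direct pair, against 15.7% of all features (medians -0.29, -0.84 and -1.72). At an unadjusted p under 0.05, 11 were lower, against 1.94% of all features. Penk, the proenkephalin gene of striatal projection neurons, had T levels of 15.08, 14.65, 12.52, 14.88 and 15.43 and WT levels of 12.49 to 16.32, median 15.56. The lowest T mouse was that of array F and the lowest WT mouse that of array A, both far below their groups, and the ratio was -1.61 ± 0.46. Rxrg, a retinoid receptor, was at -1.59 ± 0.50, Adcy5, a striatal adenylyl cyclase, at -0.94 ± 0.28 and Drd2, the D2 dopamine receptor, at -0.84 ± 0.24. A second Rxrg probe gave a smaller ratio, -0.43 ± 0.20, while other Adcy5 probes gave -0.77 and -0.865.

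Averaged over the list, T of array F lay at 9.55 and the remaining T mice at 11.5 to 11.86. WT of array A lay at 9.94 and the remaining WT mice at 11.1 to 12.67. A fit of single channels put the median at -0.71, and at -0.40 once T of array F was left out.

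Cortical neuron genes gave no common direction. Of 15 excitatory genes 9 were above 0 in the linked fit (median 0.39), with -0.17, -0.07 and -0.18 in the direct pairs, and the WT mouse of array A was low, at 9.97 against 10.7 or more in every other T and WT mouse. Of 14 interneuron genes 8 were below 0 (median -0.08), with Slc32a1, the vesicular GABA transporter, at -0.71 ± 0.30. A second Slc32a1 probe gave -0.17 ± 0.18. Of 22 synaptic and cytoskeletal genes 14 were below 0 (median -0.08). Choroid plexus genes ranged widely, with all 11 below 0 and a median of -0.85, and direct-pair medians of -3.47, 1.51 and -0.53. Ttr, which encodes transthyretin, was at 18.15 in the WT mouse of array D and at 10.21 to 14.43 in the other T and WT mice, with a ratio of -1.01 ± 1.63. In the fit of single channels without the 3 libraries apart in Prm1 the choroid plexus median was 0.51, an estimate of another kind than the linked -0.85. The 10 ependymal cilia genes had a median of 0.02, with -0.83, 1.02 and -0.06 in the pairs.

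Among stress and metabolic lists, heat shock chaperones were above 0 in 10 of 11 cases (median 0.13, direct pairs 0.23, 0.19 and 0.04). Hspa1a, the inducible HSP70, had T levels of 9.56, 9.40, 9.38, 9.20 and 9.38 and WT levels of 8.64 to 9.21, median 8.93. The T mouse of array I overlapped the highest WT mouse, the other 4 lay above all WT mice, and the ratio was 0.58 ± 0.16 (1.49-fold). Hspa1a and its near-identical copy Hspa1b may share a probe's signal. Of 13 p53 target and apoptosis genes 9 were above 0 (median 0.10), with Bcl2, which blocks apoptosis, at -0.30 ± 0.13 and Bbc3, which promotes it, at 0.23 ± 0.10. The unfolded protein response (15 genes, median 0.06), NRF2 and glutathione genes (13, -0.02) and the respiratory chain (23, -0.04) were near the median of all features. Of the 3 measured spermatid nuclear genes, Prm1 was at 1.91 ± 0.999 and the list median at 0.04, while the 4 measured Y-linked genes had a median of 1.23, with 4 of 5 T and 4 of 6 WT mice carrying the signal.

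**Figure D4:**
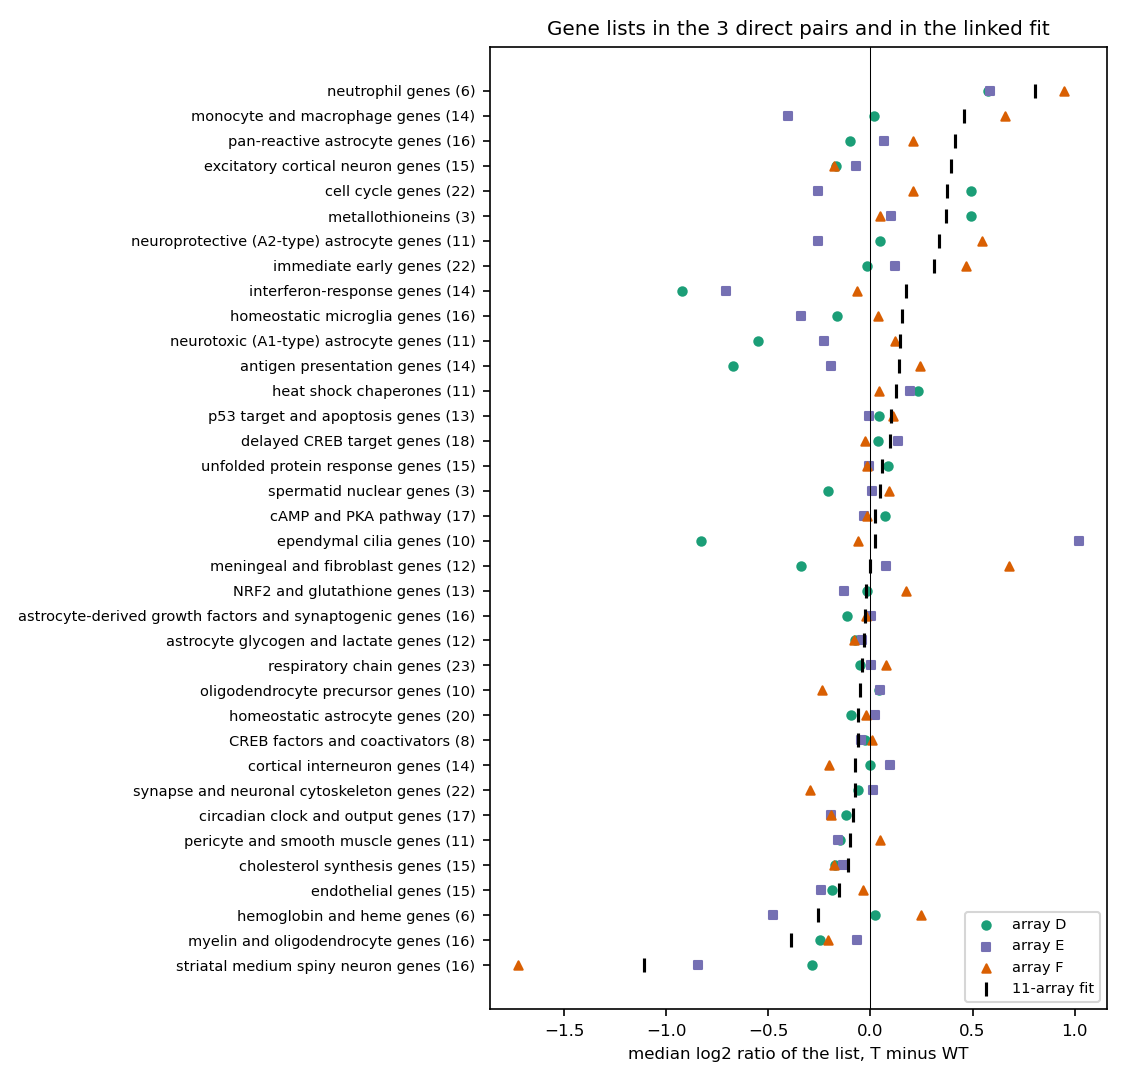
Median T minus WT log2 ratio (horizontal axis) of 36 gene lists, with the number of measured genes in brackets; coloured symbols are the direct arrays D, E and F, and the black bar is the 11-array fit. Striatal and neutrophil genes lie on one side of 0 in all 3 pairs, whereas for interferon-response genes the pairs lie below 0 and the fit above.

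Levels of all 5 T mice lay above those of all 6 WT mice for 89 features (0.342%) and below them for 65 (0.250%), of which 56 and 38 had a symbol. Among the named genes these were Fosl2, Vps37a and, named after its values were seen, Gpnmb on the higher side. Gpnmb, a glycoprotein of phagocytes and pigment cells, was at 7.27 to 7.88 in T and 6.68 to 7.08 in WT, with a ratio of 0.78 ± 0.57. On the lower side they were Itm2a, Slco1a4, Slc4a4, Cnp, Insig1, Ltbp4 and, named after their values were seen, Nexn and Pcp4l1. Nexn, an actin-binding protein gene, was at 8.45 to 10.42 in T and 10.58 to 11.19 in WT, and Pcp4l1, a small neuronal protein gene, at 13.42 to 14.21 and 14.35 to 15.17. Their ratios were -1.44 ± 0.56 and -1.09 ± 0.43, and the largest direct-pair differences for both were on array F.

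The intact genotype difference was set against the lesioned one, TC minus WTC, by testing the difference of both in the same limma fit. No feature passed (0 of 26020, 0%, with 0.807 the smallest adjusted p among the named genes), and 1387 (5.33%) had an unadjusted p under 0.05. TC minus WTC itself had 0 features past the threshold (0%). S100a9 was at 2.15 in intact and -0.61 ± 0.54 in lesioned cortex, a difference of 2.77 ± 0.69 (adjusted p = 0.807 in limma). Dbp was at -0.52 and -0.11 ± 0.08, a difference of -0.42 ± 0.10, and Egr2 at 0.85 and -0.46 ± 0.29, a difference of 1.32 ± 0.37. Fos was at 0.99 and 1.17 ± 0.28, and Crem at 0.36 and 0.59 ± 0.16, differences of -0.18 ± 0.37 and -0.23 ± 0.21. The direct arrays of each comparison share no mouse. Across all 26020 features, the mean ratio of arrays D, E and F and that of the 3 direct TC and WTC pairs (K, L and M) correlated at r = 0.446. With a dye term for each slide r was 0.406, and both means had probes and the dye estimate in common. Single arrays varied widely, from r = -0.424 (E and K) to 0.531 (E and L). With a dye term for each slide these 2 pairs were at -0.124 and 0.339. The striatal list median was -1.11 in intact and -1.39 in lesioned cortex.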

How the data were processed

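The authors deposited Agilent Feature Extraction 10.7.3.1 output, per the file headers, as linear intensity values (median spot and background brightness, not normalized). Its LogRatio, per the file headers log10 of processed red over green, served as an alternative. The authors' deposited table of comparisons was not used. Median signals were used, where the plan named mean ones. Groups came from the titles, which the channel 2 labels of arrays I, J and K contradict.

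Background was corrected with normexp (offset 50) and ratios normalized by loess within arrays in limma 3.58.1 under R 4.3.3, with control and outlier spots at weight 0. Probes were kept (35439) if 5 or more of the 22 channels were well above background and no array lacked a value, and per gene the brightest, giving 26020 features. Lesioned channels counted towards this filter, so a gene could pass while near background in T and WT mice. Symbols came from RefSeq accessions (GRCm38.p6), matching 26762 of 55681 probes (48.1%). Ratios were fitted with lmFit and eBayes with terms for T, WTC, TC and dye (7 residual degrees of freedom, two-sided, Benjamini-Hochberg, threshold 0.05). Per-mouse levels are log2 intensities of single channels, scaled by Aquantile following loess, less the dye effect.

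Named genes were up to 10 per direction with the smallest p and equal sign on arrays D, E and F, up to 4 per list by p, and Creb1, Crem, Atf1, Fos, Penk, Dbp, Gfap, Vim, Aqp4, Aif1, Prm1, Xist and Ddx3y; others are said to be named after their values were seen, and some genes the rule chose are not reported here. Members and lists were chosen with earlier results of these data known. The fit was tested on simulated data. Alternatives covered background, normalization, filters, probes, dye, slide, sex (from Ddx3y, which splits the mice as Xist does), array weights, channel labels, single channels and leaving out arrays; 3 were chosen after seeing the data.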

Additional observations from a re-analysis of the deposited data

Results flagged for a closer look

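In 222 groups of levels (73 genes and 38 lists, T and WT), 20 held a mouse that stood apart by Dixon's criterion, which chance gives in about 1 of 20 groups. The T mouse of array F was low for Penk (12.52), Prkar2b (12.50), Adcy5 (11.07), Rxrg (9.38) and the striatal list (9.55), and high for Serpina3n (9.24). The T mouse of array I was high for Vim (12.56) and low for Ddx3y (6.35), Eif2s3y (6.26) and the list of Y-linked genes (6.12), which does not include the Xist value. The T mouse of array J was high for Fosb (9.06) and low for Tspan2 (12.60), the glycogen and lactate list (10.81), the myelin list (11.69) and the unfolded protein response list (11.85). The WT mouse of array A was low for Fosl2 (9.07), the excitatory neuron list (9.97) and the interneuron list (11.62). The WT mouse of array D was high for the choroid plexus list (12.06), and that of array E was high for Scgb3a1 (6.90).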

How the results depend on the processing

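All 35 alternatives gave 0 T minus WT features past an adjusted p of 0.05. The count at an unadjusted p under 0.05 ran from 230, without the 3 mice apart in Prm1, to 2384 with array weights. The smallest adjusted p in limma was 0.242 without those 3 mice and 0.245 with array weights. The difference between intact and lesioned genotype effects passed for 13 features in the 8 arrays with a T or WT mouse and for 0 in the other alternatives that could estimate it, which leaves out arrays D, E and F alone; the cause was not tested. Of 73 named genes, 66 kept their sign in every alternative run, among them Dbp (-0.59 to -0.35) and Fosl2 (0.45 to 1.04). Most of these genes were chosen by small p or equal sign in the same arrays, so kept signs partly follow from that choice. The share over all features is not given, and the count is no support for a difference. The immediate early gene median was 0.13 to 0.54.

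The signs of 7 genes turned; the cause was not tested. Aqp4 was at 0.082 with a dye term for each slide, 0.047 on slide 1, 0.065 with a sex term, 0.15 in the 8 arrays, 0.019 on arrays D, E and F, 0.13 with the channel 2 labels, 0.11 without the 3 mice apart in Prm1, and -0.26 to 0.10 leaving out each array. Ttr was at 0.19 with a dye term for each slide, 0.28 on slide 1, 0.46 on arrays D, E and F, 0.66 without those 3 mice and -3.52 to 0.063 leaving out each array. Aif1 was at -0.24 on slide 1, -0.11 with array weights, -0.063 in the 8 arrays, -0.31 on arrays D, E and F, -0.048 in single channels with a slide term, -0.057 without mice lacking Y-linked signal and -0.066 to 0.47 leaving out each array. Creb1 was at -0.11 with a sex term, -0.005 with the channel 2 labels and -0.017 to 0.11 leaving out each array. Ddx3y turned in 2 alternatives, at -0.17 with a sex term and at -0.076 in 1 fit of single channels. Eif2s3y turned in 1 alternative, at -0.10, also a fit of single channels. The other alternatives that held these genes kept the sign. Dlx4 was at 0.001 without mice lacking Y-linked signal.

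Arrays D, E and F pair a T with a WT mouse, and fitted alone they gave 0 features past the threshold and 1003 at an unadjusted p under 0.05. The number of arrays limits the precision, with a median SE of 0.116.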
